A study of Arabidopsis thaliana with 6 samples.

Results

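The genes rpl5 and cob are neighbours on the mitochondrial genome of Arabidopsis thaliana, and they were taken by name, as 2 of the 24 genes with a deposited level. rpl5 encodes protein L5 of the large subunit of the mitochondrial ribosome. cob encodes cytochrome b, a catalytic subunit of respiratory complex III. Both had a value in all 6 level files and in all 3 reading-frame files.

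Ribosome footprints and total RNA had been sequenced from isolated mitochondria, prepared from the youngest leaves of ecotype Col-0 plants aged 9 to 10 weeks. All plants had 8 h of light and 16 h of dark. The groups were wild type and phenotypes P2 and P3 of a heterozygous mutant, Rps10 +/-. RPS10 is a nuclear gene whose product, S10, belongs to the small subunit of the mitochondrial ribosome. P2 and P3 share this genotype and do not stand for independent mutants. Each kind of plant gave 1 footprint library and 1 RNA library, and each library pooled 15 mitochondrial preparations, so the differences below could not be checked on replicates and carry no p-value. About 30 g of leaves per isolation was used for wild type and about 15 g for the mutant, and kanamycin (50 mg per litre) was present only in the medium of the mutant seedlings, so genotype, leaf mass and kanamycin cannot be told apart. All mitochondria were thawed with chloramphenicol (100 µg/ml), which stalls mitochondrial ribosomes.

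In a ribosome-profiling experiment, nuclease removes the RNA that ribosomes do not cover, and the protected fragments show which messages ribosomes occupy. Ribosomal protein L5 sits in the central protuberance of the large subunit, beside the 5S rRNA and facing the small subunit. Cytochrome b carries the b-type hemes and the quinone-binding sites of complex III, and it is the subunit of that complex encoded in plant mitochondria, while the others are imported from the cytosol. The pair therefore sets a part of the translation machinery beside a product of that machinery that works in respiration. Both genes lack introns in Arabidopsis and their transcripts undergo C-to-U editing.

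In the TAIR10.1 gene table, cob and rpl5 follow each other among the protein-coding genes, with a pseudogene of rps14 between them. That pseudogene had no value in any of the files. The protein-coding gene on the other side of cob is nad6, a complex I subunit, and the one on the other side of rpl5 is ccmFC, which had no level. The table was used for names and order alone, and the sources used here do not give the build of the deposited files. Levels per gene do not show whether reads came from a transcript that holds both genes or from separate ones.

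Levels were deposited as TPM (transcript levels as parts of a fixed total), which are corrected for gene length, so that the pair can be compared within a library. TPM add up to 1000000 over the 24 genes, so a TPM value is a share of their summed level rather than an absolute amount. The RNA libraries held 1971931 to 3126478 reads on mitochondrial coding sequence (CDS), and the footprint libraries 416254 (wild type), 80146 (P2) and 48653 (P3). The files give no reads per gene, and the depth behind each value of rpl5 and cob is therefore unknown. The CDS share of the filtered footprint reads was 5.37% for wild type, 0.530% for P2 and 0.407% for P3, a difference between libraries that TPM do not carry. With tRNA and rRNA set aside, CDS made up 62.6% of the mitochondrial reads of the wild-type footprint library. The P2 footprint library had 17.3% and the P3 one 14.9%. The matching RNA shares were 60.4% (wild type), 47.1% (P2) and 46.2% (P3). Plastid and nuclear reads also moved with the groups, at 5.32% and 4.51% of the wild-type RNA reads, against 1.21% to 1.22% and 0.428% to 0.725% in the mutant libraries. Among footprint reads they were 1.43% and 14.04% in wild type, against 0.279% to 0.327% and 1.77% to 1.90% in the mutant. The part of these differences in the results below was not tested. In pooled material, fewer mitochondria that hold a message and less of that message per mitochondrion cannot be told apart.

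The RNA of rpl5 stood at 19462 TPM in wild type, then 34864 TPM in P2 and 33269.8 TPM in P3. The RNA of cob stood at 36828 TPM in the wild type, 46944 TPM in P2 and 46232 TPM in P3. Both genes had their lowest RNA level in wild type, and cob was above rpl5 in each of the 3 RNA libraries. rpl5 RNA was 52.8% of cob RNA in wild type, then 74.3% in P2 and 72.0% in P3.

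Among the 24 genes ordered by RNA level, cob was in place 9 in each library, while rpl5 was in place 12 in wild type and 11 in P2 and P3. The nearest genes lay close. In P3, cox3, a subunit of cytochrome c oxidase, lay 1.02-fold above cob, and in P2, rps12, a protein of the small ribosomal subunit, lay 1.02-fold below rpl5. With 1 library per group such neighbours in the order cannot be separated.

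Relative to wild type, rpl5 RNA was 1.79-fold higher in P2 and 1.71-fold higher in P3 (log2 ratios 0.84 and 0.77). cob RNA was 1.27-fold and 1.26-fold higher (0.35 and 0.33). A gene was called when its level in the mutant was 1.5 times or more above or below wild type (a log2 ratio of 0.58), and in RNA rpl5 was called higher and cob was not, in both phenotypes. The background was high, since 58.3% of the 24 genes were called higher in P2 and 58.3% in P3, and 8.33% were called lower in each. The median log2 ratio was 0.84 in P2 and 0.78 in P3. rpl5 RNA differed from it by 0.0029 and -0.0083 log2 units, and cob RNA by -0.49 and -0.45. The median of 24 genes is the mean of places 12 and 13, which rpl5 and nad3, a complex I gene, held in both phenotypes. rpl5 thus helps to set the median, and its closeness to the median is no separate result. By RNA ratio rpl5 was in the middle of the order, and cob was lower, in place 16 in P2 and 17 in P3. The RNA directions hang on the scale: with median-of-ratios scaling, which centres libraries on a typical gene, the log2 ratios were 0.010 and -0.015 for rpl5 and -0.48 and -0.46 for cob.

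The footprints of rpl5 stood at 3565 TPM in wild type, then 27662 TPM in P2 and 30425 TPM in P3. The footprints of cob stood at 43079.6 TPM in wild type, then 55337 TPM in P2 and 51607 TPM in P3. The wild-type library was far below both mutant libraries for rpl5, while the 3 values of cob lay within 1.28-fold of wild type. As parts of the summed footprint TPM, rpl5 took 0.357%, 2.77% and 3.04%, and cob took 4.31%, 5.53% and 5.16%.

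**Figure D1:**
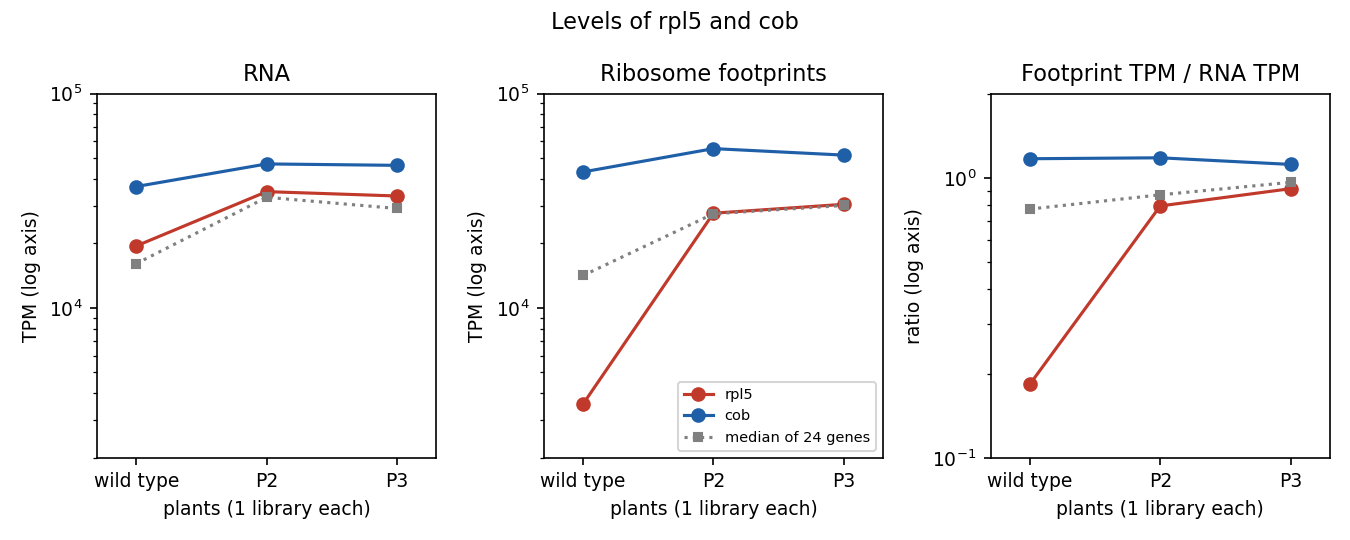
Levels of rpl5 (red), cob (blue) and the median of the 24 genes (grey squares) in wild type, P2 and P3, as RNA TPM, footprint TPM and footprint TPM over RNA TPM, each on a log axis. Each point is 1 library and lines only join the points of a gene. The rpl5 footprint level in wild type, 3565 TPM, lies far below its levels of 27662 and 30425 TPM in the mutant, while the cob points stay between 43079.6 and 55337 TPM.

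In the order of footprint levels, rpl5 was in place 16 in wild type and 12 in P2 and P3, and cob was in place 10, 6 and 7. The wild-type footprint level of rpl5 was next to those of other ribosomal protein genes, 1.02-fold below rps12 and 1.53-fold above rpl16, a large-subunit protein. In P2 the genes nearest to rpl5 were rps4 (1.01-fold above), another small-subunit protein, and atp8 (1.01-fold below), a subunit of the ATP synthase. In P3 nad6 lay 1.10-fold above cob and nad9, a complex I subunit, 1.07-fold below it.

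Relative to wild type, rpl5 footprints were 7.76-fold higher in P2 and 8.53-fold higher in P3 (log2 ratios 2.96 and 3.09). cob footprints were 1.28-fold and 1.20-fold higher (0.36 and 0.26). In footprints rpl5 was called higher and cob was not, beside 58.3% of the genes called higher and 29.2% called lower in each phenotype. The median gene had log2 ratios of 1.30 and 1.32, from which rpl5 differed by 1.65 and 1.78 and cob by -0.94 and -1.05. rpl5 was in place 6 of the 24 footprint ratios in both phenotypes, and cob in place 15. These places do not depend on how a library is scaled, because a scaling moves all genes of a library together.

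The sign of each footprint ratio did depend on the scale. With median-of-ratios scaling the log2 ratios were 1.74 and 1.78 for rpl5 and -0.86 and -1.05 for cob. When TPM were multiplied by the share of all filtered reads that lay on CDS, rpl5 footprints were 1.31-fold lower than wild type in P2 and 1.55-fold lower in P3, and cob footprints were 7.90-fold and 11.0-fold lower. On that scale the median gene had log2 ratios of -2.04 and -2.41. When TPM were multiplied by the CDS share of mitochondrial reads other than tRNA and rRNA, a scale added after seeing the data, rpl5 was 2.15-fold and 2.03-fold higher and cob 2.81-fold and 3.52-fold lower. rpl5 thus stood on either side of wild type depending on which reads it was counted against. Its place above cob is the same on each of these scales by construction, because a scaling moves both genes alike.

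**Figure D2:**
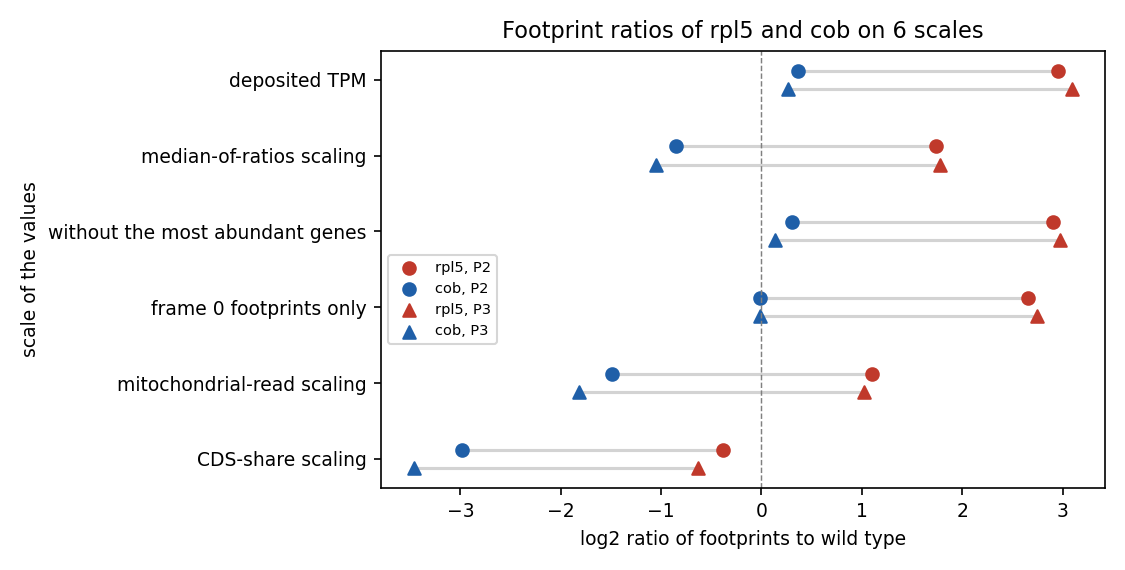
Log2 ratios of footprints to wild type for rpl5 (red) and cob (blue) in P2 (circles) and P3 (triangles) on 6 scales, with a grey line joining both genes of a comparison. The whole pair moves along the axis from the deposited TPM (rpl5 at 2.96 and 3.09) to the share of all filtered reads (-0.39 and -0.63). The grey line keeps its length under every pure scaling, and is 2.67 (P2) and 2.76 (P3) log2 units for frame 0 footprints.

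The distance between the genes is free of that choice. In wild type the footprint level of cob was 12.1-fold that of rpl5. In P2 cob exceeded rpl5 by 2.00-fold and in P3 by 1.70-fold. The rpl5 level was thus 8.28% of the cob level in wild-type footprints, 50.0% in P2 and 59.0% in P3. The log2 ratio of rpl5 to wild type exceeded that of cob by 2.59 in P2 and 2.83 in P3 for footprints, which is 6.04-fold and 7.12-fold. For RNA the same difference was 0.49 in P2 and 0.45 in P3, which is 1.41-fold and 1.36-fold.

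The 2 mutant libraries lay near each other on this measure. Between P2 and P3 the difference of the pair changed by 0.24 log2 units for footprints and -0.045 for RNA. The P3 over P2 log2 ratios of footprints were 0.14 for rpl5 and -0.10 for cob, and those of RNA were -0.068 and -0.022. Neither gene was called between P3 and P2 in RNA, where 0% of genes were called, or in footprints, where 29.2% were. On the TPM scale the largest P3 over P2 difference over all 24 genes was 0.24 for RNA (atp4, of the ATP synthase) and 0.70 for footprints (rpl16). The rpl5 footprint ratios over wild type were larger than these on the same scale, while those of cob (0.36 and 0.26) were below 0.70. Scaled by the CDS share of all filtered reads, the rpl5 ratios were -0.39 in P2 and -0.63 in P3. On that scale 8 of the 24 genes were called lower in P3 than in P2 in footprints. Each of these 8 thus differed more between P3 and P2 than rpl5 did between P2 and wild type. With 1 library per group, the spread between replicates is not known. P2 and P3 both rest on the same wild-type libraries, and a deviation of those would appear in both comparisons.

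Such distances were not rare among the genes measured. Of the 276 pairs of the 24 genes, 43.5% were at least as far apart as rpl5 and cob in their P2 footprint ratios and 47.1% in their P3 footprint ratios. For RNA these shares were 77.2% and 77.9%. The median pair differed by 2.23 and 2.61 log2 units in footprints, against 2.59 and 2.83 for rpl5 and cob, and by 0.86 and 0.92 in RNA, against 0.49 and 0.45.

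Set beside other neighbours, the pair held a middle place in RNA and a higher one in footprints and efficiency. There were 13 pairs of protein-coding genes that follow each other in the gene table and both have TPM, and rpl5 and cob had the 4th largest difference in footprints and the 8th largest in RNA, in both phenotypes. In efficiency their difference was the 5th largest in P2 and the 4th largest in P3. The largest footprint difference was that of nad3 and rps12 (5.65 in P2 and 6.11 in P3), a complex I gene beside a small-subunit gene. The pair of cob with its other neighbour, nad6, differed by 0.56 and 0.73 in footprints. nad6 footprints were 1.90-fold and 1.99-fold higher than in wild type. For nad6, cob and rpl5 the log2 ratios of footprints were 0.92, 0.36 and 2.96 in P2 and 0.99, 0.26 and 3.09 in P3. Of these 3 genes cob had the lowest ratio, in RNA as well (0.60, 0.35 and 0.84 in P2 and 0.67, 0.33 and 0.77 in P3). Only the order of the genes was used, and a link between their values and their positions was not tested.

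Dividing footprint TPM by RNA TPM from the same plants gives a ratio, called efficiency here, that sets the ribosome footprints of a message against its RNA level. The efficiency of rpl5 was 0.183 in wild type, then 0.793 in P2 and 0.914 in P3. The efficiency of cob was 1.17 in wild type, then 1.18 in P2 and 1.12 in P3. The wild-type value of rpl5 stood apart from its mutant values, and the 3 values of cob lay within 1.06-fold of each other.

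In wild type rpl5 was in place 23 of 24 by efficiency, 1.05-fold below rpl16 and 5.56-fold above matR, the maturase gene, which was last. In P2 it was in place 17 and in P3 in place 14, between ccmFN2, a gene for cytochrome c maturation, and atp6.1, a subunit of the ATP synthase. cob moved the other way in the order, from place 6 in wild type to 9 in P2 and 11 in P3, although its own value hardly differed on the TPM scale. With median-of-ratios scaling the efficiency of cob had log2 ratios to wild type of -0.37 in P2 and -0.59 in P3. The median gene had an efficiency of 0.773, 0.869 and 0.963.

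The efficiency of rpl5 was 4.33-fold higher than wild type in P2 and 4.99-fold higher in P3 (log2 ratios 2.11 and 2.32), while that of cob had log2 ratios of 0.011 and -0.068. rpl5 was called higher, beside 37.5% of genes in P2 and 45.8% in P3, and cob was not called, beside 25% called lower in P2 and 29.2% in P3. The log2 ratios of the pair differed by 2.10 in P2 and 2.39 in P3, and 35.9% and 38.0% of all pairs of genes were at least as far apart. In wild type cob exceeded rpl5 in efficiency by 6.39-fold, in P2 by 1.49-fold and in P3 by 1.22-fold. Between P3 and P2, where 16.7% of genes were called, neither gene was (0.20 for rpl5 and -0.079 for cob). Scaled by the CDS share of all filtered reads, the efficiency of rpl5 was 1.91-fold and 2.16-fold lower than in wild type and that of cob 8.21-fold and 11.3-fold lower.

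**Figure D3:**
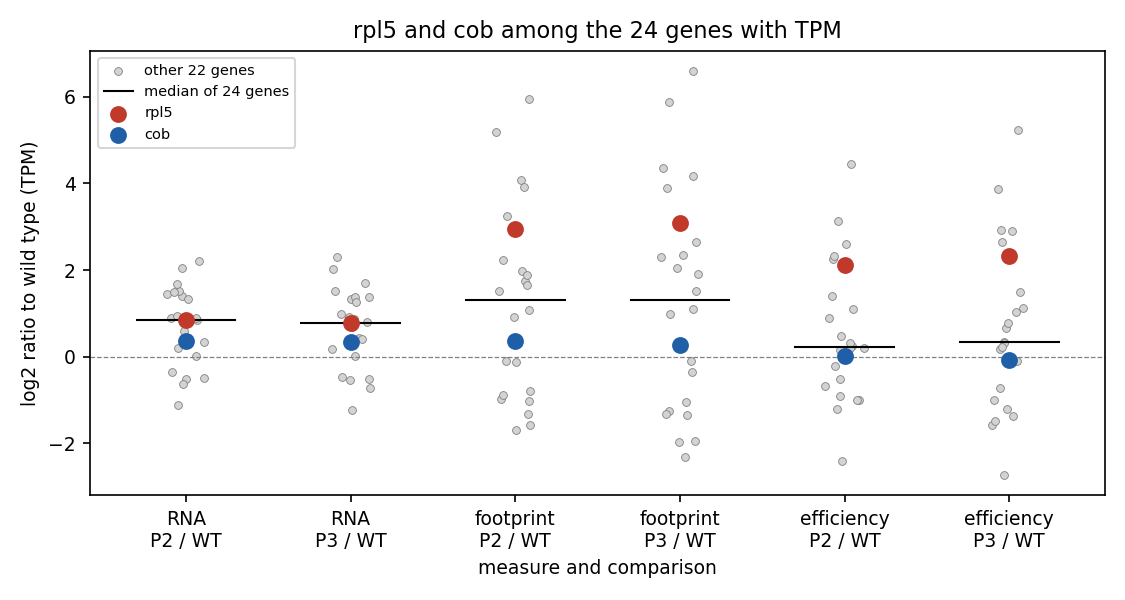
Log2 ratios to wild type of rpl5 (red), cob (blue) and the other 22 genes (grey) for RNA, footprints and efficiency in P2 and P3, with the median of the 24 genes as a black bar. rpl5 lies on the median bar in RNA, where rpl5 and nad3 set the bar. In footprints and efficiency rpl5 lies 1.65 to 1.99 log2 units above the bar. cob lies below the bar in all 6 columns.

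Both genes can be placed among others of their function. Of 7 mitochondrial ribosomal protein genes listed, 5 had TPM, and on the TPM scale all 5 were called higher in RNA and in footprints in both phenotypes, beside 58.3% of all 24 genes in each. With median-of-ratios scaling 3 of the 5 in P2 and 2 in P3 were called higher in RNA, beside 25% and 20.8% of all genes. Scaled by the CDS share of all filtered reads, 2 of the 5 were called higher in footprints in each phenotype, beside 12.5% of all genes. On that scale 1 in P2 and 2 in P3 were called lower in footprints, beside 75% and 79.2%. rpl5 had the lowest RNA ratio of these 5 in P2 and P3 and the 4th footprint ratio, above rps7 (1.08 and 1.11), a small-subunit protein, and below rps4 (3.93 and 4.36). Its efficiency ratio was also 4th of 5. The list medians of the footprint ratios were 3.93 and 4.17, so rpl5 lay below the typical ribosomal gene and above the median of all 24 genes (1.30 and 1.32).

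Of 19 genes listed for the respiratory chain and ATP synthase, 13 had TPM, and cob is the complex III gene among them. In footprints 3 of the 13 were called higher and 7 lower in each phenotype, beside 58.3% and 29.2% of all genes, and cob, called in neither direction, had the 4th highest ratio. Scaled by the CDS share of all filtered reads, all 13 were called lower in both phenotypes, beside 75% of all genes in P2 and 79.2% in P3. The median ratio of the list was -0.79 for P2 and -1.04 for P3, against 0.36 and 0.26 for cob. In efficiency 2 were called higher in each phenotype, beside 37.5% of all genes in P2 and 45.8% in P3, and 6 were called lower in P2 and 7 in P3, beside 25% and 29.2%. cob was 6th of the 13 efficiency ratios in P2 and 5th in P3, above list medians of -0.51 and -0.72. Scaled by the CDS share, 0 of the 13 were higher and 13 lower in efficiency, beside 87.5% (P2) and 83.3% (P3) of all genes called lower. In RNA 3 were called higher and 2 lower in each phenotype, beside 58.3% and 8.33% of all genes, and cob was 5th in P2 and 6th in P3. With median-of-ratios scaling 0 of the 13 were higher and 7 lower in RNA, beside 25% (P2) and 20.8% (P3) of all genes higher and 29.2% lower. With CDS-share scaling 1 was higher and 5 were lower, beside 45.8% and 20.8%. On the TPM scale cob thus lay above the typical respiratory gene in footprints and below the typical gene of the whole set.

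Reading frames were compared because ribosomes advance by codons, so that footprints of translating ribosomes fall mostly in 1 of the 3 frames. Of the rpl5 footprints, 54.4% were in frame 0 in the wild type, 44.1% in P2 and 42.6% in P3. Of the cob footprints, 61.9% were in frame 0 in the wild type, 47.8% in P2 and 51.0% in P3. Frame 0 held the largest share for both genes in each library, above the 33.3% of an even spread. Having frame 0 as the largest was common among the 24 genes. It applied to 23 of them with wild-type footprints, 22 with those of P2 and 21 with those of P3. Both rpl5 and cob had their highest frame 0 share in wild type. Reads per gene are not given, so no counting interval can be attached to these shares.

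The shares of frames 1 and 2 were closer to each other than to that of frame 0 for both genes in each library. rpl5 had 19.8% in frame 1 and 25.8% in frame 2 in wild type, 28.4% and 27.4% in P2, and 26.8% and 30.6% in P3. cob had 17.9% and 20.2% in wild type, 25.2% and 27.0% in P2, and 22.4% and 26.7% in P3. Frame 2 exceeded frame 1 for both genes in every library apart from rpl5 in P2.

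**Figure D4:**
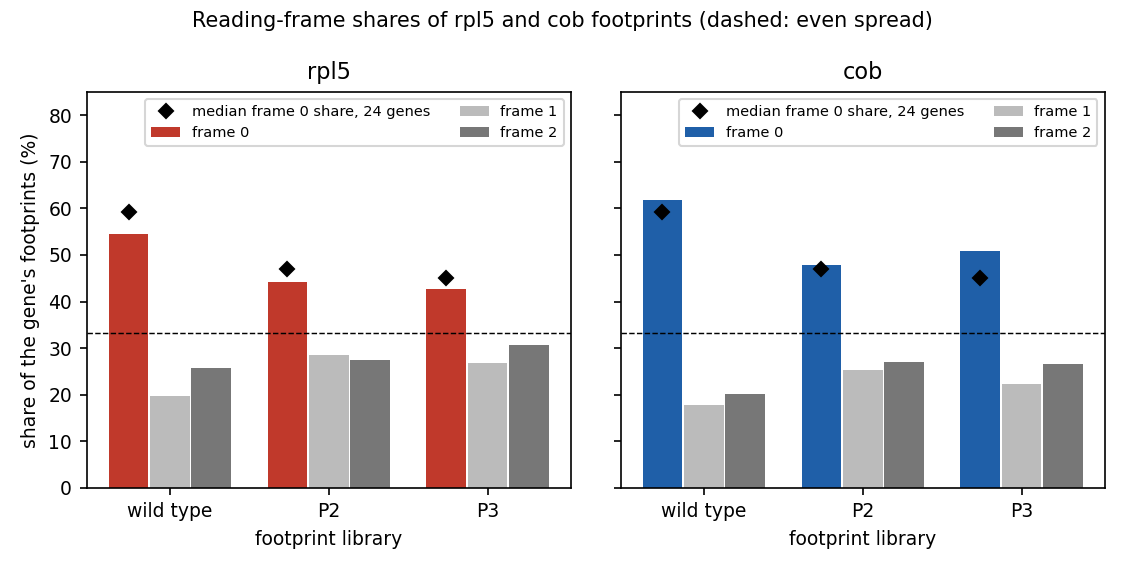
Shares of the footprints of rpl5 (left) and cob (right) in frame 0 (coloured), frame 1 (light grey) and frame 2 (dark grey) in the wild-type, P2 and P3 footprint libraries, in percent. Diamonds give the median frame 0 share of the 24 genes and the dashed line an even spread of 33.3%. Frame 0 of rpl5 is below the diamond and that of cob above it in each library.

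The frame 0 share of rpl5 changed from wild type by -10.3 (P2) and -11.8 (P3) percentage points, and that of cob by -14.1 and -10.9. All 24 genes had a lower frame 0 share in each phenotype than in wild type, with a median change of -12.1 points in P2 and -11.3 in P3. Ordered from the largest fall, cob was in place 8 and rpl5 in place 16 in P2. In P3 rpl5 and cob held places 12 and 13, the 2 middle places. The P3 median is therefore the mean of these 2 genes, and their closeness to it is no separate result. The median share over the 24 genes was 59.2% in the wild type, 47.0% in P2 and 45.0% in P3. rpl5 differed from it by -4.75, -2.85 and -2.31 points, and cob by 2.71, 0.76 and 6.0 points. By frame 0 share cob was in place 7, 10 and 6 of the 24 genes and rpl5 in place 19, 16 and 18. cob exceeded rpl5 by 7.45 points in the wild type, 3.62 in P2 and 8.31 in P3.

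Since the frame 0 share differed between the libraries, the ratios were also computed from frame 0 alone, an alternative added after seeing the data, by multiplying each footprint TPM by the gene's frame 0 share. rpl5 was then 6.29-fold higher than wild type in P2 and 6.69-fold higher in P3. cob had log2 ratios of -0.012 and -0.019, against 0.36 and 0.26 over all frames. Its efficiency in frame 0 had log2 ratios of -0.36 and -0.35. The pair differed by 2.67 log2 units in P2 and 2.76 in P3, against 2.59 and 2.83 over all frames, and cob frame 0 footprints were 13.7-fold those of rpl5 in the wild type, 2.16-fold in P2 and 2.03-fold in P3. Which read lengths entered the frame shares and which entered TPM is not stated in these sources, so this product assumes that both rest on the same footprints.

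Patterns most like each gene were found by the root mean square difference of log2 TPM over the 6 libraries, with each gene centred on its own mean within the RNA and within the footprint libraries. The nearest genes to rpl5 were tatC (0.24 log2 units), which encodes a component of twin-arginine protein transport, ccmFN1 (0.30) and ccmC (0.40), which act in cytochrome c maturation. The nearest to cob were nad9 (0.23), nad6 (0.24) and rps7 (0.32). cob was 12th nearest to rpl5 and rpl5 17th nearest to cob, at a distance of 0.92. Over the 3 footprint libraries alone ccmB replaced ccmC for rpl5, and atp6.1 replaced rps7 for cob.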

How the data were processed

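Per the labels' protocols, each library came from 15 pooled mitochondrial preparations. Per the submitters' processing notes, STAR and featureCounts were used. Their versions and settings and the genome build were not given in the sources used here. The authors deposited gene levels as TPM over 24 genes, per the file headers. Reading frames were deposited as a fraction per gene, and reads per class were deposited as whole numbers with a fraction of the first number of each block.

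Samples were grouped by title into 6 groups of 1 library, so no test was possible. Log2 ratios of TPM were computed with no pseudocount, since no value was 0, with numpy 2.4.6 and pandas 2.3.3 in Python 3.11.15. At least 1.5-fold apart counted as called. The arithmetic was tested on simulated data. Alternatives were median-of-ratios scaling, 2 scalings by CDS share, a pseudocount of 100 TPM, leaving out atp9 and cox3 (the most abundant genes), genes under 1000 TPM left out, a 2-fold threshold and frame 0 footprints. Named genes were both members, the 3 nearest in pattern, neighbours on the genome and in the order of levels, extremes and fixed lists. The genes next in the order of levels were chosen after values were seen. Members and lists were chosen with earlier results of these data known. Of the 24 names, 22 matched the TAIR10.1 gene table, and the copies of atp6 were not placed.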

Additional observations from a re-analysis of the deposited data

Results flagged for a closer look

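The efficiency of cob had log2 ratios to wild type of opposite sign in the phenotypes, 0.011 in P2 and -0.068 in P3. Each phenotype had 1 library of each kind, and the difference was not tested.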

How the results depend on the processing

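No paired analysis was possible because each group had 1 library, and no replicate could be left out. The difference between rpl5 and cob kept its direction and its side of 1.5-fold with a pseudocount and in frame 0 footprints, for RNA, footprints and efficiency, and scalings cannot move it. The level of rpl5 over cob in P2 efficiency passed 1.5-fold in frame 0 footprints (-0.68 on the log2 scale). The other values below are log2 ratios in P2 and then P3 over wild type unless another comparison is named.

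With median-of-ratios scaling rpl5 RNA was 0.010 and -0.015, cob RNA -0.48 and -0.46, cob footprints -0.86 and -1.05, cob efficiency -0.37 and -0.59, and cob RNA in P3 over P2 0.020. With CDS-share scaling rpl5 RNA was 0.55 and 0.48, rpl5 footprints -0.39 and -0.63, rpl5 efficiency -0.93 and -1.11, cob footprints -2.98 and -3.46, and cob efficiency -3.04 and -3.50. In P3 over P2 rpl5 was then -0.24 for footprints and -0.18 for efficiency. With mitochondrial-read scaling, chosen after seeing the data, rpl5 RNA was 0.48 and 0.39, cob RNA -0.0091 and -0.059, cob footprints -1.49 and -1.81, cob efficiency -1.48 and -1.75, and rpl5 footprints in P3 over P2 -0.086. In frame 0 footprints cob was -0.012 and -0.019, its efficiency -0.36 in P2, and its efficiency in P3 over P2 0.015. Without the most abundant genes cob RNA in P3 over P2 was 0.023. The scalings multiply whole libraries and shift all genes alike, while frame 0 footprints use each gene's own share.

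Without genes under 1000 TPM in wild type, rpl5 was in place 5 and cob in place 13 of the footprint ratios in P2 and P3. Relative to the median gene the frame 0 share of rpl5 was -4.75, -2.85 and -2.31 points in wild type, P2 and P3 and that of cob 2.71, 0.76 and 6.0, so the change from wild type turned to 1.89 in P2 and 2.43 in P3 for rpl5 and to 3.29 in P3 for cob. Over the footprint libraries alone 2 of the 3 nearest genes of each member were shared.

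Of all genes, those called higher in RNA numbered 14 in each phenotype, against 8 at 2-fold and 6 and 5 with median-of-ratios scaling. Those called lower in RNA numbered 2, against 1 at 2-fold, 5 with CDS-share scaling and 7 with median-of-ratios. In footprints CDS-share scaling gave 3 higher and 18 and 19 lower, against 14 and 7. In P2 footprints 9 were higher with median-of-ratios scaling and 4 lower at 2-fold. In efficiency CDS-share scaling gave 1 higher and 21 and 20 lower, against 9 and 11 higher and 6 and 7 lower, and 2 were lower in P2 at 2-fold. Reads per gene are unknown, so the counting error of a single gene could not be given.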
